A study of Drosophila melanogaster with 2 samples.

Results

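The mRNAs of 10 genes of the spindle checkpoint, the chromosomal passenger complex and the Aurora kinases were followed in stage 14 oocytes of *Drosophila melanogaster*, in RNA that came down with the RNA helicase ME31B and in the lysate it was taken from. The genes were chosen by name, with earlier results of these data known, and all 10 were found among the 16863 genes of the deposited table. *aurA* (also *aur*), *aurB* (also *ial*), *Incenp* and *borr* form a group of passenger and Aurora genes, and *BubR1*, *Bub1*, *Bub3*, *mad2*, *Mps1* (also *ald*) and *rod* form the checkpoint group. All 10 were above 0.5 FPKM in both libraries, as were 6886 genes of the table in all.

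Stage 14 oocytes of the fly are arrested in metaphase of the first meiotic division, with homologous chromosomes held on a spindle that has no centrosomes, until egg activation releases them. The spindle checkpoint delays anaphase while kinetochores lack proper attachment to microtubules: the kinase Mps1 recruits the Bub proteins, Mad2 is converted to its active form, and Mad2, BubR1 and Bub3 together hold the Cdc20 protein that the anaphase-promoting complex needs. The passenger complex carries the kinase Aurora B to chromosomes and the spindle midzone, where it releases faulty attachments and helps to build the spindle. The same proteins serve the rapid nuclear divisions of the early embryo, which run on maternally deposited mRNAs, and ME31B, with Trailer Hitch and Cup, is known as a repressor of such mRNAs.

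The study sequenced 1 library of immunoprecipitated RNA and 1 library of input RNA after rRNA depletion. Both came from stage 14 oocytes labelled as *w1118;eGFP-Me31B*, a strain whose ME31B carries an eGFP tag, although the methods name *w1118* flies for such oocytes. Because no antibody is labelled for the immunoprecipitate, it was read as the anti-GFP library that the methods describe. A library from control IgG was not analysed here, so RNA that sticks to beads is part of each value, and no library comes from another stage or genotype.

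The values are FPKM, which divide the reads of a gene by its transcript length and by all mapped reads of its library. Occupancy is the immunoprecipitate FPKM over the input FPKM, on a log2 scale. It is given relative to the median gene, whose ratio was 1.26. As each condition has a single library, no difference could be tested, and a gene was counted as high or low by size alone, from 2-fold away from the median gene. Of the 6886 genes, 9.48% passed that limit above the median gene and 15.2% below it.

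The tissue label was set beside markers. Of 9 maternal mRNAs, all were above the minimum in both libraries, with up to 13967 FPKM in the immunoprecipitate and 12458 FPKM in the input for *dhd*. Eggshell and yolk mRNAs of follicle cells were also present, at 495 FPKM in the immunoprecipitate and 861 FPKM in the input summed over 11 genes. Both sums come from the same lysate. The number of follicle cells in it and the RNA of each cell cannot be told apart from such bulk values. Markers of fat body (3 genes), male germline (4 genes) and muscle (6 genes) summed to 0.039, 0.19 and 5.16 FPKM in the immunoprecipitate and to 0, 1.59 and 6.02 FPKM in the input. The 4 gut protease genes summed to 18.7 FPKM in the immunoprecipitate and 31.5 FPKM in the input.

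Read numbers, not given in the sources used here, left a trace in low values. Among 1054 genes detected under 0.5 FPKM in each of the libraries, the commonest ratio of immunoprecipitate to input was 0.981, with 184 genes in a window of 0.1 on the log2 scale. At 0.5 and 2 times that ratio the same window held 59 and 50 genes, against 16 and 23 genes midway between, a pattern that whole reads in libraries of similar depth would give. Protein-coding genes with 1 RefSeq transcript and a span of 400 to 4000 bp piled up where 1 read was worth 0.116 FPKM in the immunoprecipitate and 0.128 FPKM in the input for a span of 1 kb. The fullest window there held only 52 of 536 low genes in the immunoprecipitate and 50 of 555 in the input. The ratio of the 1-read values, 0.906, also differs from 0.981. On the rough scale of these 1-read values the 10 mRNAs had about 319 to 4341 reads in the immunoprecipitate and 297 to 2727 reads in the input. The counting error of a log2 occupancy was 0.036 to 0.10. If transcripts were only 0.25 times as long as the spans, the error would be 0.072 to 0.20. These errors cover counting alone and say nothing of how another immunoprecipitation would come out.

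All 10 mRNAs were present in the oocyte, at levels that differed 98.3-fold in the immunoprecipitate and 19.7-fold in the input. Relative to the median gene their log2 occupancy had a median of 0.09, with 6 genes above the median gene and 4 below. One gene, *rod*, was at least 2-fold below it, a share to be read beside the 15.2% of all genes, and none was at least 2-fold above it, beside 9.48% of all genes. The list as a whole thus sat at the centre of the distribution, and its members were spread on both sides. Within 0.15 of the median gene, a bound chosen after the values were seen, lay 4 of the 10, *aurB*, *Bub3*, *Incenp* and *Bub1*, and 13.5% of all genes. Before centring, 7 of the 10 had more FPKM in the immunoprecipitate than in the input, as had 64.2% of all genes.

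**Figure D1:**
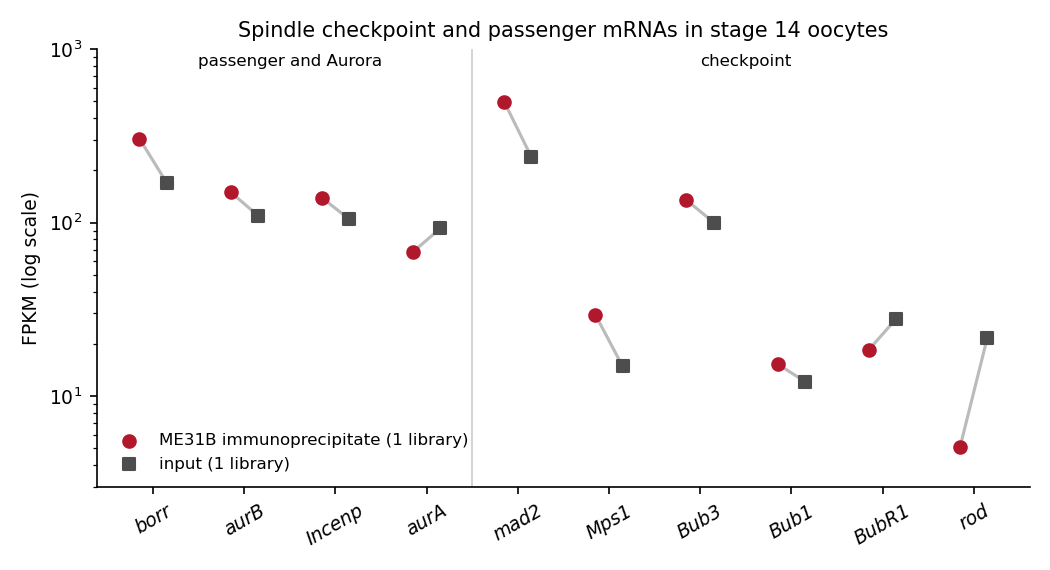
FPKM (log scale) of each of the 10 mRNAs in the ME31B immunoprecipitate (red circles) and in the input (grey squares), 1 library each, without error bars because there are no replicates. *mad2* is the most abundant in both libraries, at 499 FPKM in the immunoprecipitate and 239 FPKM in the input, and *rod* had 5.07 FPKM in the immunoprecipitate, against 21.7 FPKM in the input.

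The mRNAs of the passenger complex lay near or above the median gene. *borr* encodes Borealin, the subunit that brings the complex to chromatin. It had 305 FPKM in the immunoprecipitate and 169 FPKM in the input, a ratio of 1.80 and a log2 occupancy of 0.52 relative to the median gene, above 73.6% of all genes. *Incenp* encodes the scaffold that binds and activates Aurora B, and had 139 FPKM in the immunoprecipitate and 105 FPKM in the input, which is 0.08 relative to the median gene. *aurB*, the kinase itself, had 150 FPKM in the immunoprecipitate and 110 FPKM in the input, at 0.12. The scaffold and its kinase were thus nearly equal to each other in abundance and in occupancy, although set beside genes of like span they were apart, at 0.27 for *Incenp* and −0.35 for *aurB*. The level of *borr* was 2.19 times that of *Incenp* in the immunoprecipitate and 1.62 times in the input. *Det* (deterin, also *svn*), the fly Survivin and a companion of these 3, had 270 FPKM in the immunoprecipitate and 124 FPKM in the input, at 0.79, so that all 4 subunits were on the upper side of the median gene, each by less than 2-fold. Set beside genes of like input FPKM, *aurB* and *Incenp* turned to −0.20 and −0.24, so the upper side held for *borr* and *Det* on each of these scales and not for the other two. The Borealin paralog of male meiosis, *aust*, was listed at 0 in both libraries.

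Aurora A, which acts at centrosomes and on spindle microtubules and is not a passenger protein, stood apart from Aurora B. *aurA* had 67.8 FPKM in the immunoprecipitate and 92.7 FPKM in the input, a ratio of 0.731 and a log2 occupancy of −0.79, and 20.6% of all genes were lower. *aurB* exceeded *aurA* 2.21-fold in the immunoprecipitate and 1.19-fold in the input. The difference of *aurA* minus *aurB* was −0.90 on the log2 scale with a counting error of about 0.083. The companions *bora* and *mei-38* were nearer the median gene. *bora*, the activator of Aurora A, had 51.8 FPKM in the immunoprecipitate and 35.7 FPKM in the input, at 0.20. *mei-38*, the fly relative of TPX2, had 139 FPKM in the immunoprecipitate and 119 FPKM in the input, at −0.11.

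In the checkpoint group occupancy was widely spread. *mad2*, whose protein changes shape at unattached kinetochores and then binds Cdc20, had 499 FPKM in the immunoprecipitate and 239 FPKM in the input. Its ratio of 2.09 and log2 occupancy of 0.73 were the highest of the 10, and 82.2% of all genes were lower. *Mps1*, the kinase at the head of the pathway, whose mutants missegregate chromosomes in female meiosis, followed at 0.66. It was among the rarer of the 10, with 29.5 FPKM in the immunoprecipitate and 14.8 FPKM in the input, and 24.9% of all genes had a lower input FPKM. The 2 highest checkpoint mRNAs therefore came from near opposite ends of the list in abundance. *Mad1*, which holds Mad2 at kinetochores, was at 0.19, with 41.9 FPKM in the immunoprecipitate and 29.1 FPKM in the input.

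The Bub mRNAs lay close to the median gene or below it. *Bub3*, the small adaptor that both Bub kinases bind, had 135 FPKM in the immunoprecipitate and 100.2 FPKM in the input, at 0.10 relative to the median gene. *Bub1*, the kinetochore kinase that recruits other checkpoint proteins, had 15.3 FPKM in the immunoprecipitate and 12.1 FPKM in the input, and with a log2 occupancy of −0.0005 was in effect the median gene. *BubR1*, the paralog whose protein binds Cdc20 together with Mad2, had 18.5 FPKM in the immunoprecipitate and 27.9 FPKM in the input. Its ratio of 0.662 put it at −0.93, just inside the 2-fold limit, with 16.9% of all genes lower. *BubR1* was 1.21 times as abundant as *Bub1* in the immunoprecipitate but 2.30 times in the input, and the difference of *BubR1* minus *Bub1* in occupancy was −0.93 on the log2 scale with a counting error of about 0.11. *Bub3* exceeded *BubR1* 7.30-fold in the immunoprecipitate and 3.59-fold in the input, so the mRNAs of 2 direct binding partners differed more in the bound RNA than in the total. Set beside genes of like span, *Bub3* and *BubR1* were closer in occupancy, at −0.25 and −0.47. *Bub1* went the other way, to 0.35 on that scale and to 0.40 beside genes of like input FPKM.

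*rod* was the one mRNA of the 10 outside the 2-fold limits. It encodes the large subunit of the Rod, Zw10 and Zwilch complex, which loads dynein and the Mad proteins onto kinetochores. It had 5.07 FPKM in the immunoprecipitate and 21.7 FPKM in the input, a ratio of 0.233, which is −2.43 relative to the median gene, and 1.28% of all genes were lower. In the immunoprecipitate it was the lowest of the 10, whereas in the input it was nearest to *BubR1*. The difference of *mad2* minus *rod* was 3.16 on the log2 scale, 8.96-fold, with a counting error of about 0.099. The other subunits were also below the median gene but not 2-fold. *Zw10* had 76.7 FPKM in the immunoprecipitate and 105 FPKM in the input, at −0.79, and *Zwilch* had 45.9 FPKM in the immunoprecipitate and 46.6 FPKM in the input, at −0.36. *Spindly*, the dynein adaptor that the complex recruits, had 26.5 FPKM in both libraries, at −0.34. Within 1 protein complex, *rod* minus *Zw10* came to −1.65. Set beside genes of like span, *rod* and *Zw10* were closer, at −1.92 and −0.77, with *Zwilch* at −0.41 and *Spindly* at −0.21.

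**Figure D2:**
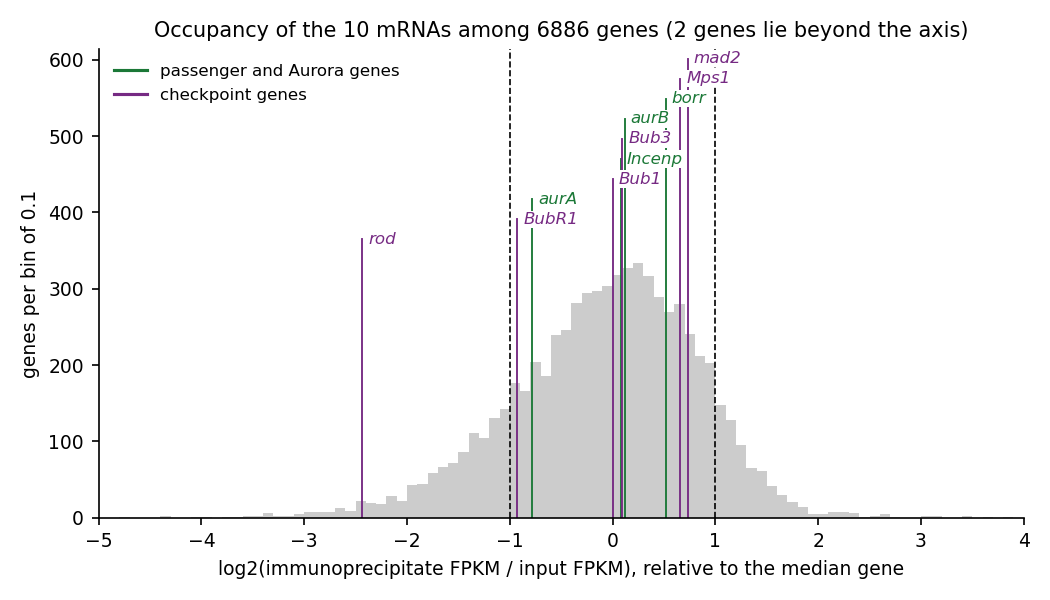
Log2 occupancy relative to the median gene for 6886 genes (grey bars, genes per bin of 0.1) with the 10 mRNAs as lines, green for passenger and Aurora genes and purple for checkpoint genes, and dashed lines at 2-fold above and below the median gene. Only *rod*, at −2.43, falls outside the dashed lines, and *mad2*, at 0.73, is the highest.

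The 4 passenger and Aurora genes had a median of 0.10 and the 6 checkpoint genes a median of 0.05, so their centres were close. Their ranges ran from −0.79 to 0.52 in the passenger and Aurora genes and from −2.43 to 0.73 in the checkpoint genes. Levels differed more clearly than occupancy. In the input the passenger and Aurora mRNAs had between 92.7 and 169 FPKM, whereas the checkpoint mRNAs fell into *mad2* and *Bub3* at 100.2 FPKM or more and *Mps1*, *Bub1*, *rod* and *BubR1* at 27.9 FPKM or less. The abundant pair encodes small proteins, and the rare set encodes kinases and the large Rod subunit.

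A list of 37 companion genes of the same pathway, written down by role, was set beside the 10. Of the 36 above 0.5 FPKM in both libraries, 4 were at least 2-fold above the median gene, beside 9.48% of all genes, and 4 at least 2-fold below it, beside 15.2% of all genes, and their median was −0.18. The counts in the sets of companions that follow are to be read beside the same shares. Among 11 kinetochore genes, which build the surface where checkpoint proteins assemble, 2 were 2-fold above and 1 was 2-fold below. *Spc25*, of the microtubule-binding Ndc80 complex, was the highest at 1.40, with 484 FPKM in the immunoprecipitate and 146 FPKM in the input. Its partners *Ndc80* and *Nuf2* stood at −0.09 and 0.08. *Mis12*, of the complex that joins Ndc80 to the centromere, had 190 FPKM in the immunoprecipitate and 67.5 FPKM in the input, at 1.16. *Kmn1*, of that same complex, missed the limit at 0.99, and *Nnf1b* and *Nnf1a* were at 0.49 and −0.11.

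The lowest kinetochore mRNA was *Spc105R*, the KNL1 relative on which Bub proteins assemble. It had 6.45 FPKM in the immunoprecipitate and 10.4 FPKM in the input, at −1.03. It was thus low beside *Bub3*, *Bub1* and *Mps1*, at 0.10, −0.0005 and 0.66, as *rod* was. It was close to *BubR1*, at −0.93. Set beside genes of like span, *Spc105R* was nearer *Bub3*, at −0.57 and −0.25, whereas *rod* was at −1.92. There *BubR1* was at −0.47, *Bub1* at 0.35 and *Mps1* at 0.67. On that scale *Nnf1a*, at −0.70, was the lowest of the kinetochore genes. At the centromere itself *cid*, the centromeric histone H3, was at 0.70, with 167 FPKM in the immunoprecipitate and 81.9 FPKM in the input. The centromere protein *Cenp-C* was at −0.47 and *cal1*, the loading factor for the Cid histone, at −0.69.

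The targets of the checkpoint held both high and low mRNAs, with 1 of 6 genes 2-fold above and 2 genes 2-fold below the median gene. *fzy*, the fly Cdc20 that Mad2 and BubR1 hold, had 27.7 FPKM in the immunoprecipitate and 84.9 FPKM in the input, at −1.95, and 3.04% of all genes were lower. *cort*, a Cdc20 relative of female meiosis, had 37.9 FPKM in the immunoprecipitate and 73.0 FPKM in the input, at −1.28. *rap* (also *fzr*), the fly Cdh1, was at −0.25. *pim*, the securin that is destroyed at anaphase, had 747 FPKM in the immunoprecipitate and 238 FPKM in the input, at 1.31. Its partners in the separase complex, *Sse* and *thr*, were at −0.42 and −0.43. For the 4 proteins that form the inhibitory complex, the mRNAs therefore ran from *mad2* at 0.73 through *Bub3* at 0.10 and *BubR1* at −0.93 to *fzy* at −1.95. The difference of *mad2* minus *fzy* was 2.68 on the log2 scale with a counting error of about 0.085. Set beside genes of like span, *mad2*, *Bub3* and *BubR1* were closer together, at 0.11, −0.25 and −0.47, and *fzy* was at −2.05.

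Kinases, phosphatases and protectors that act with these proteins had a median of −0.68 over 8 genes, with 1 gene 2-fold above and 1 gene 2-fold below. *Haspin*, the kinase that marks histone H3 for the passenger complex, was the highest, with 180 FPKM in the immunoprecipitate and 51.9 FPKM in the input, at 1.46. *mei-S332*, the fly shugoshin, was at 0.29. *polo* had 261 FPKM in the immunoprecipitate and 303 FPKM in the input, at −0.55, and its inhibitor *mtrm* had 547 FPKM in the immunoprecipitate and 848 FPKM in the input, at −0.97. Of the phosphatase PP1, which opposes Aurora B and silences the checkpoint, *Pp1alpha-96A* was at 0.55, *Pp1-87B* at −0.85 and *flw*, the lowest of this set, at −1.27. *sds22*, a regulatory subunit of PP1, was at −0.82. The midzone proteins, which act on the central spindle, were close together. With *bora* and *mei-38*, all 6 of that list, from *pav* at 0.30 to *sub* at −0.37, lay within 2-fold of the median gene. So did most of the 6886 genes, of which 9.48% passed the upper limit and 15.2% the lower one. *pav* and *sub* encode kinesin-6 motors, and *sub* is needed for the spindle of the oocyte.

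**Figure D3:**
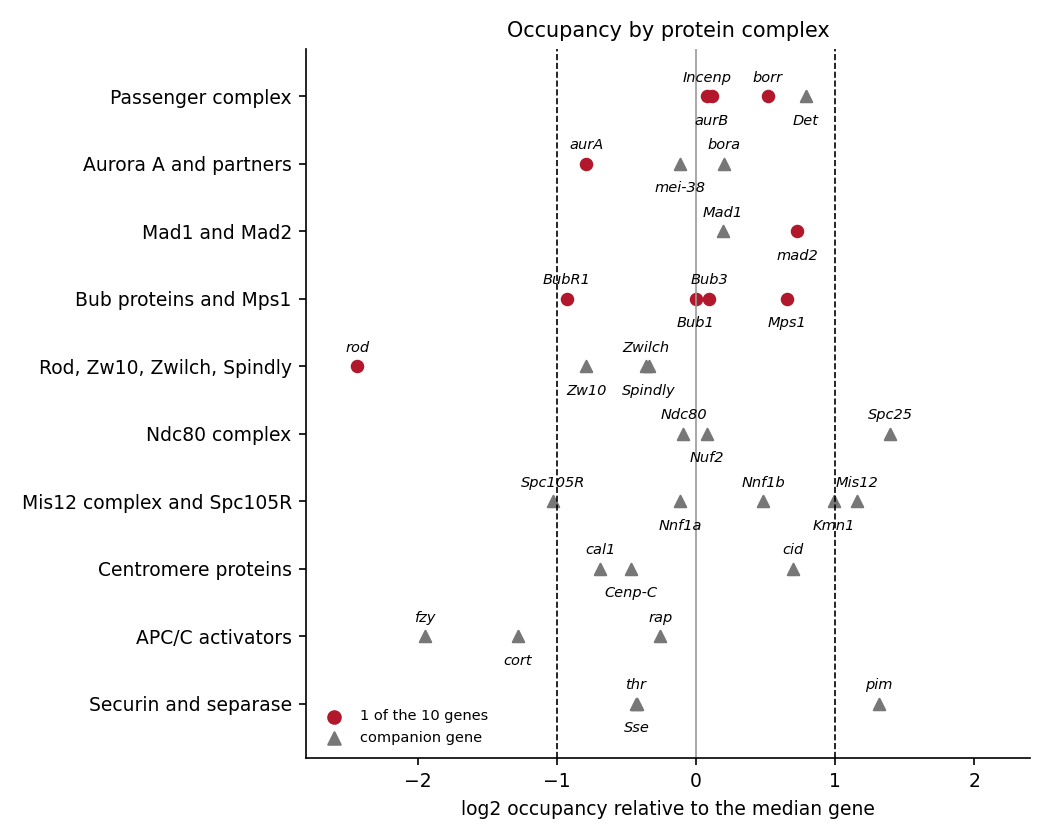
Log2 occupancy relative to the median gene by protein complex, with the 10 genes as red circles, companion genes as grey triangles, and dashed lines at 2-fold above and below. The passenger complex lies to the right of the median gene, from 0.08 to 0.79, whereas the complex of *rod*, drawn with *Spindly*, lies to the left, from −2.43 to −0.34, and partners such as *mad2* and *fzy* lie on opposite sides.

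Genomic span moved with occupancy. The 10 genes span 959 to 7294 bp, introns included, and across them Spearman's rho between span and log2 occupancy was −0.78, against −0.41 across 6839 genes with a RefSeq span. Genes are not independent replicates, and both values of an occupancy come from the same pair of libraries. The shortest, *mad2*, was the highest and the longest, *rod*, the lowest. Each gene was therefore also set beside the median of the genes nearest to it in span, a window that holds 7.33% of them. On that scale *mad2* moved to 0.11 and *Mps1*, at 0.67, became the highest, followed by *Bub1* at 0.35, *Incenp* at 0.27 and *borr* at 0.20. *Bub3* was at −0.25, *aurB* at −0.35 and *BubR1* at −0.47. *rod* stayed the lowest, at −1.92, and *aurA* passed the 2-fold limit at −1.10. So 2 of the 10 were 2-fold below genes of like span, beside 12.2% of all genes. The difference between the highest and lowest of the 10 was 2.59, for *Mps1* minus *rod*. Before, it was 3.16, for *mad2* minus *rod*, a pair that was closer on the span scale, at 0.11 and −1.92. Among the 36 companions, 2 were 2-fold above genes of like span, beside 7.24% of all genes, and 4 were 2-fold below, beside 12.2%. *Spc25* and *Haspin*, at 1.07 and 2.08, stayed above the limit, and *fzy* and *cort*, at −2.05 and −1.48, stayed below it. *Mis12* at 0.57, *pim* at 0.72, *Spc105R* at −0.57 and *flw* at −0.69 no longer passed the limit, whereas *mtrm* at −1.56 and *sds22* at −1.15 did so on this scale. Span is not transcript length, and the part of length in these values was not tested.

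**Figure D4:**
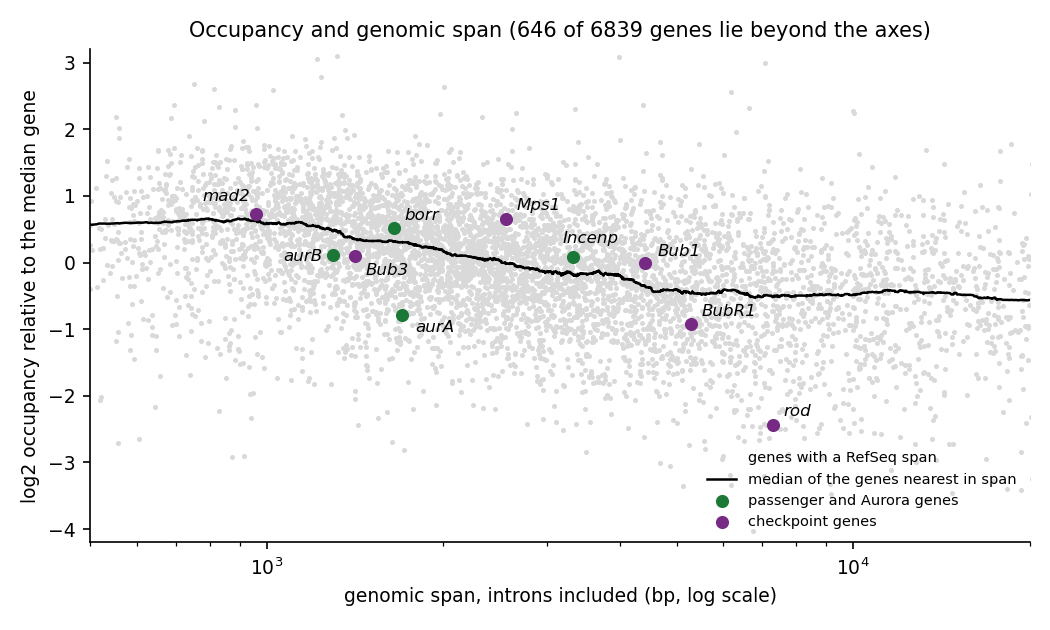
Genomic span in bp (log scale) against log2 occupancy relative to the median gene, with single genes as pale grey dots, the median of the genes nearest in span as a black line, and the 10 genes in green (passenger and Aurora) and purple (checkpoint). *mad2* lies close to the line, whereas *rod* and *aurA* lie under it, at −1.92 and −1.10 relative to the line.

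The genes lie on 4 chromosome arms of Release 6 of the genome, which is dm6. *rod* spans chr3R:31580951-31588244 and overlaps no other annotated gene, as do *aurB* at chr2L:10856797-10858094, *borr* at chr2L:9251472-9253118 and *Bub1* at chr2L:5278865-5283283. *Incenp* and *BubR1*, on 2R, also stand alone. The other 4 share an end with a neighbour. *mad2* at chr3L:5812135-5813093 shares 94 bp with *kri*, which had 99.2 FPKM in the immunoprecipitate and 72.7 FPKM in the input. *aurA* at chr3R:11963124-11964826 shares 153 bp with *CG12213*, at 46.3 FPKM in the immunoprecipitate and 26.3 FPKM in the input. *Mps1* at chr3R:17671271-17673828 shares 97 bp with *alt*, at 39.0 FPKM in the immunoprecipitate and 34.5 FPKM in the input, and *Bub3* at chr3R:29674007-29675421 shares 217 bp with *ppk19*, listed at 0 in both libraries. No source used here says whether counting used strand, so reads in shared ends could have gone to either gene. *CG12213* had a higher occupancy than *aurA*, at 0.48, and *kri* and *alt*, at 0.11 and −0.16, had lower ones than *mad2* and *Mps1*. The 6 genes without overlap had a median of 0.04, against 0.09 for all 10. Among the companions, *fzy* overlaps *cact*, *cort* overlaps *cup*, and *Spc25* overlaps *grsm*, while *pim*, *Haspin*, *Mis12* and *Spc105R* overlap no other gene.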

How the data were processed

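RNA from a ME31B immunoprecipitate and from input lysate of stage 14 oocytes was sequenced as 1 library each. As the methods and the processing notes of the submitters state, the authors converted 50-base single-end reads with bcl2fastq 2.17, mapped them with STAR 2.5.2a to dm6 and quantified genes with Cufflinks 2.2.1. The deposited values are FPKM per gene, with no filter and no stated scaling between libraries. FPKM columns sum to 1131580 in the immunoprecipitate and 1072660 in the input. The methods name a stranded library kit. The sources used here do not give the annotation release or whether counting used strand.

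Occupancy was log2 of immunoprecipitate over input FPKM, without a pseudocount, for genes above 0.5 FPKM in both libraries, and was centred on their median. No p-value was computed. Names, biotypes and spans were found for 6839 of 6886 genes in the Release 6 RefSeq table, through the symbol or else a unique synonym or locus tag. Overlap was taken between RefSeq spans. The text names each of the 10 genes and, from 6 companion lists drawn up by role, at least the highest and lowest gene; other companions were added after their values were seen. The 10 genes and the lists were chosen with earlier results of these data known. Alternatives changed the filter, the pseudocount, the centring and the size rule. The computation was tested on simulated data with planted folds and a planted trend on span. Sequences were not used here. Python 3.11.15, pandas 2.3.3 and matplotlib 3.10.9 were used.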

Additional observations from a re-analysis of the deposited data

How the results depend on the processing

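Under 11 alternatives and 2 chosen after seeing the data (the protein-coding genes nearest in span, and genes without overlap), 55 of 62 summary values moved by at most 0.5 on the log2 scale or 1.5 times in a count. Single genes were recomputed under 9 of the alternatives, and 88 of 90 values moved by at most 0.5. Those that moved further were *mad2* and *rod* beside the genes nearest in span, at 0.11 and −1.92. The 5 FPKM minimum, no centring and centring on protein-coding genes shift all 10 genes equally, so differences between genes could not change there. Within the bound of 0.5, *aurB*, *Bub3*, *Incenp* and *Bub1* took both signs. The checkpoint minus passenger and Aurora median ranged from −0.06 to 0.31. The median of the 10 was positive at each centring on 1 median for all genes, and was −0.21 beside the genes nearest in input FPKM and −0.07 beside those nearest in span. *aurA* minus *aurB* ranged from −0.90 to −0.74, *BubR1* minus *Bub1* from −1.29 to −0.82, and *rod* from −2.48 to −1.92. Against 0 genes 2-fold above the median gene, 1 gene was counted without a filter and with pseudocount 0.5, where 8.66% of all genes lay as high, 1 without centring (*mad2* in each), where 20.3% did, and 2 at a limit of 1.5-fold (*mad2* and *Mps1*), where 23.8% did. Against 1 gene 2-fold below, 2 were counted when centred on the genes nearest in input FPKM, in span, or in span among protein-coding genes (*rod* and *aurA* in each), where 14.0%, 12.2% and 11.4% of all genes lay as low, and 3 at 1.5-fold (*BubR1* as well), where 26.3% of all genes lay as low. No paired analysis was possible because there is 1 immunoprecipitate and 1 input. Centring on genes of like protein length was not run. The only roughly known depth and the use of 1 library per condition, with no IgG library analysed here, limit every value.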
